A study of Mus musculus with 2 samples.

Results

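The cells described here were the immature and cycling B-lineage cells among the CD45+ cells of mouse dorsal root ganglia (DRG), the sensory ganglia beside the spinal cord. They were chosen from raw UMIs (unique molecular identifiers, each marking 1 captured RNA molecule) in the deposited matrix of 2668 cells. A cell was a member if it had at least 4 UMIs of Cd79a and Cd79b together and at least 2 UMIs of Vpreb1, Vpreb3 and Igll1 together. C1qa, C1qb and C1qc had to hold under 0.3% of its UMIs, and S100a8 and S100a9 under 2%. The rule found 132 precursor cells, and 29 further cells met it except that they had 0 or 1 UMI of the 3 precursor genes. The name precursor cells stands for the rule and does not give a stage. These 29 are the comparison B cells, and both groups make up the 161 B-lineage cells.

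All mice were WT and naive, of strain BALB/cAnNRj, and their CD45+DAPI- cells were sorted from DRG cell suspensions made after perfusion. The paper names pooled cervical, thoracic and lumbar DRGs for its flow cytometry, and its sequencing methods name no levels. The labels give no age for these animals, and the paper gives only a lower limit of age for its mice as a whole. Cells of 3 male and 3 female mice were marked with hashtag antibodies, 1 hashtag taken as 1 mouse, and run in 1 lane of the 10x 3′ system with hashtag reads in a second library. The deposited matrix holds only cells with a male hashtag (481, 772 and 1415 cells of male mouse 1, 2 and 3), and the hashtag library holds the same 2668 barcodes among 4395. The same steps gave 1073 cells with a female hashtag (382, 313 and 378), which the rule had not used, and in which it found 80 precursor cells and 25 comparison B cells.

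B cells develop in the bone marrow of adult mice through ordered stages. Pro-B cells rearrange the heavy chain locus with the recombinase Rag1 and Rag2 and the polymerase Dntt (TdT), and they express the surrogate light chain, a pair of invariant proteins encoded by Igll1 (lambda5) and Vpreb1. Large pre-B cells pair a new mu heavy chain (Ighm) with this surrogate in the pre-B cell receptor, which signals through Cd79a and Cd79b, and they divide. Small pre-B cells stop dividing and rearrange the kappa or lambda light chain, immature B cells carry surface IgM, and mature B cells add IgD (Ighd), MHC class II and receptors such as CD23 (Fcer2a). Vpreb3 is related to Vpreb1, is not part of the surrogate light chain, and is expressed through the pre-B and immature stages.

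The 3 precursor genes of the rule lie at 2 places in the genome (GRCm38, GENCODE M21 annotation). Vpreb1 (ENSMUSG00000059305, chromosome 16 from 16868403 to 16870843) and Igll1 (ENSMUSG00000075370, chromosome 16 from 16860671 to 16863985) are neighbours on the minus strand, with 4417 bases between them. Vpreb3 (ENSMUSG00000000903, chromosome 10 from 75943057 to 75949657) is on the plus strand of another chromosome. Of the other genes that mark the stages, Rag1 (ENSMUSG00000061311, chromosome 2 from 101638282 to 101649501) and Rag2 (ENSMUSG00000032864, chromosome 2 from 101624718 to 101632529) are neighbours, and Dntt is ENSMUSG00000025014, chromosome 19 from 41029275 to 41059525. The constant regions Ighm (ENSMUSG00000076617, chromosome 12 from 113418558 to 113422730) and Ighd (ENSMUSG00000104213, chromosome 12 from 113406604 to 113416324) lie in the heavy chain locus, and Igkc (ENSMUSG00000076609, chromosome 6 from 70726435 to 70726966) in the kappa locus. Reads of this 3′ assay lie mostly in the last exon of a gene. The 250 bases before the start of each gene (RefSeq, GRCm38.p6) are shown (for Vpreb1 and Vpreb3 the RefSeq start lies inside the GENCODE span given above, so the window does too) because Igll1 and Vpreb1 were found together in the same cells and Vpreb3 in a wider set. Capitals mark the letters CCCNNGGG, the core of the motif of EBF1, and CAGGTG, an E box of the kind bound by E2A, each searched on both strands. The regions are chr16:16863986-16864235 on the minus strand, chr16:16869256-16869505 on the minus strand and chr10:75948050-75948299 on the plus strand.
Igll1: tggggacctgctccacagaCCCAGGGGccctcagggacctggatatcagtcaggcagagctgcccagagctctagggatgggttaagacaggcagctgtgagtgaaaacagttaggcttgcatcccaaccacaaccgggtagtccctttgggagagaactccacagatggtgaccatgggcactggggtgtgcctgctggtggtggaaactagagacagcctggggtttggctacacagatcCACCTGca
Vpreb1: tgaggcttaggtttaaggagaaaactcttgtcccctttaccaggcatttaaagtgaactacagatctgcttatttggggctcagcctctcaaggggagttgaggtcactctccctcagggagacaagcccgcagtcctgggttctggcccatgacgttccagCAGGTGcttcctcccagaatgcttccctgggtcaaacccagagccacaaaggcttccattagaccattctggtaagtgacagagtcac
Vpreb3: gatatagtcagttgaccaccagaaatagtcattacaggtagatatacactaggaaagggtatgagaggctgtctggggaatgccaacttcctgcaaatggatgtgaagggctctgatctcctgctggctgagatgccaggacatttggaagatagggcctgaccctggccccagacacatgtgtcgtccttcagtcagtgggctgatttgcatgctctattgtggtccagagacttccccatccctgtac

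In these windows CCCNNGGG was found once, 231 bases before the start of Igll1, and CAGGTG once each before Igll1 and Vpreb1 (8 and 88 bases). Neither was found before Vpreb3. Of 32851 RefSeq windows of 300 bases (250 before to 50 after a start), 13.7% held CCCNNGGG and 20.2% held CAGGTG, so a match is common, and it is a match of letters only. Vpreb2, a copy of Vpreb1 on the same chromosome, shares a run of 91 identical bases with the Vpreb1 window, and its transcript is 97.5% identical over 686 aligned bases. Reads of this pair could be split by the counting. The 132 precursor cells had 243 UMIs of Vpreb1 and 18 of Vpreb2, and the Vpreb2 value is therefore uncertain.

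Precursor cells were found in every mouse. Male mouse 1, 2 and 3 gave 33, 35 and 64 of them, against 12, 6 and 11 comparison B cells. They were 6.86%, 4.53% and 4.52% of the cells of each mouse (mean 5.31% ± 1.35, SD, n = 3) and, pooled over mice, 132 of 2668 cells or 4.95% (Clopper-Pearson 95% limits of 4.16% and 5.84%). Of the B-lineage cells they were 73.3%, 85.4% and 85.3% (81.3% ± 6.94). In female mice they were 7.85%, 7.03% and 7.41% of the cells (7.43% ± 0.413), each above the highest male share. An exact permutation test (two-sided, n = 3 against 3) gave p = 0.1, the smallest this design allows. Their share of B-lineage cells was 76.7% ± 4.17 in female mice and overlapped that of male mice (exact permutation p = 0.4). Intervals of this kind cover counting error only.

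The number of precursor-gene UMIs, which chose the members, ran over a wide range. Of the male B-lineage cells 17 had 0, 12 had 1, 8 had 2, 7 had 3, 42 had 4 to 9, 42 had 10 to 19 and 33 had 20 or more. The 8 cells just inside the rule had 18288 CPM (UMIs of a gene per 1000000 UMIs of the summed cells) of Cd74, the invariant chain of MHC class II, and the 12 just outside 14157. For Sox4, a transcription factor of early B-lineage cells, they had 101 and 201 CPM. The 75 male cells with 10 or more UMIs had 1308 CPM of Cd74 and 971 CPM of Sox4, far from the cells on either side of the threshold. In female mice the 8 cells with 2 UMIs had 8678 CPM of Cd74 and 593 of Sox4, and the 9 cells with 1 UMI had 21683 and 30.9, so that there the sides differed more. The median depth was close in both groups, at 3407 UMIs per precursor cell and 3431 per comparison B cell, but the deepest cells were precursor cells (1530 to 37058 UMIs against 903 to 8261), and precursor cells with Top2a or Mki67 had a median of 9199. The plot of precursor-gene UMIs by mouse shows cells at both ends of this range in every mouse.

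**Figure D1:**
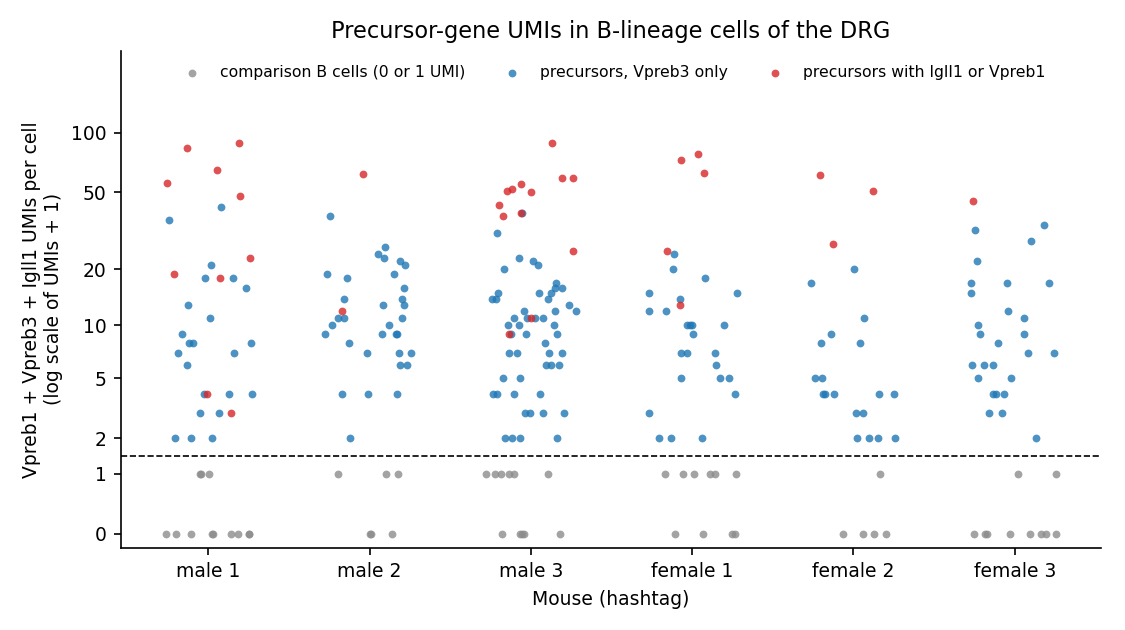
Each point is 1 B-lineage cell, placed by mouse (x) and by its UMIs of Vpreb1, Vpreb3 and Igll1 together (y, log scale of UMIs + 1). The dashed line is the threshold of the rule, with 29 male and 25 female comparison B cells below it and 132 male and 80 female precursor cells above. Cells with Igll1 or Vpreb1 (25 male, 9 female) reach the highest counts in each mouse.

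The label was set beside its markers. The rule itself used Vpreb1, Vpreb3, Igll1, Cd79a and Cd79b, so these do not check it, and Vpreb3 was found in all 132 precursor cells. Ebf1, a transcription factor that specifies the B lineage and does not mark immaturity, was found in 131 precursor cells and all 29 comparison B cells, against 3.54% of macrophages, 1.41% of neutrophils and 1.04% of T cells. Igll1 was found in 23 cells, Vpreb1 in 20 and Top2a, the DNA topoisomerase of dividing cells, in 33. Cycling markers were thus found in a minority of the members. As a measure of free RNA, 2 or more Vpreb3 UMIs were found in 1 of 1326 macrophages, 2 of 568 neutrophils and 0 of 96 T cells, and Igll1 or Vpreb1 in 5, 5 and 0 of them.

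Markers of other cell types were near 0 for T cells, NK cells, dendritic cells and basophils, and were present at low levels in the macrophage, monocyte, neutrophil, erythroid and plasma cell lists. Over 10 T cell genes, the precursor cells had 42, 21.5 and 15.8 CPM, with Cd3g, Trbc2, Cd4 and Cd8a at 0, against 5803 in T cells. The 10 macrophage genes summed to 789, 1041 and 918 CPM, with Apoe as the most abundant (366 of 604 UMIs) and none at 0, against 58515 in macrophages. In comparison B cells the same list had 1681, 1817 and 1633 CPM, again mostly Apoe (136 of 180 UMIs), with Adgre1, Fcgr1, Cd163 and Fcrls at 0. Apoe was also lower in precursor cells in the test across genes described further on (log2 fold change -1.35, SE 0.22, adjusted p = 0.000494, edgeR's quasi-likelihood test), and the part of this list in the other results was not tested. The 8 neutrophil genes had 261, 438 and 269 CPM in precursor cells and 357, 399 and 526 in comparison B cells, with Ngp as the most abundant (69 of 202 UMIs in precursor cells). The 5 monocyte genes had 546, 581 and 513 CPM in precursor cells, with Lyz2 as the most abundant (191 of 360 UMIs), and 1009, 576 and 719 in comparison B cells. Of 8 erythroid genes, which summed to 252, 244 and 241 CPM, Blvrb gave 118 of 164 UMIs in precursor cells, and Hba-a1, Hba-a2, Hbb-bt and Car1 were at 0. The plasma cell list had 1124, 789 and 842 CPM, of which Mzb1 gave 551 of 617 UMIs in precursor cells and Prdm1, the regulator of plasma cells, was at 0. In comparison B cells it had 357, 310.3 and 443 CPM, again mostly Mzb1 (34 of 40 UMIs) with Prdm1 at 0. Mzb1, a chaperone of the endoplasmic reticulum in B-lineage cells, was higher in precursor cells of male mice (log2 fold change 1.23, SE 0.29, adjusted p = 0.00715) and was not called without mouse 3 (1.35), and the part of this list in the other results was not tested. Glial, neuronal and stromal genes summed to at most 149 CPM in precursor cells of male mice.

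By stage, most precursor cells had Vpreb3 without the surrogate light chain. Of these 107 Vpreb3-only cells, 99 had 10 or more light chain UMIs, so the name precursor does not place them at the pro-B or pre-B stage. Igll1 or Vpreb1 was found in 25 of 132 cells (18.9%, 95% Clopper-Pearson interval 12.6% to 26.7%), and in 18 of these both were found. Male mouse 1, 2 and 3 had 10, 2 and 13 such cells, or 30.3%, 5.71% and 20.3% of their precursor cells (18.8% ± 12.4, n = 3). The spread between mice was wide, and mouse 2 was low. In female mice 5, 3 and 1 of the precursor cells had Igll1 or Vpreb1 (11.3% ± 6.86). These cells were deeper, with a median of 7547 UMIs against 3247 in the 107 Vpreb3-only cells. After each cell was thinned to 2000 UMIs, their mean share was 12.0% in male mice.

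Dntt, the polymerase that adds untemplated bases at heavy chain joints, marked a smaller set within them. At 3 UMIs or more it was found in 7 male and 5 female precursor cells. Each of these 12 cells had Igll1 or Vpreb1, and each had 2 light chain UMIs or fewer. The 7 male cells held 93 of the 94 Dntt UMIs of all precursor cells, at a median depth of 5954 UMIs, and 3 of them had Top2a or Mki67. Dntt was also found in 10.4% of T cells. Of the comparison B cells 0 of 29 in male mice had a UMI of it (95% Clopper-Pearson interval 0% to 11.9% for cells with a UMI at this depth), and 1 of 25 in female mice had 2 UMIs.

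Rag1 or Rag2, the recombinase, was found in 27 of 132 precursor cells (20.5%, interval 13.9% to 28.3%). Of these 9 had Igll1 or Vpreb1 and 18 were Vpreb3-only. Rag1 had 18 UMIs and Rag2 17 in all precursor cells, against 1 and 0 in comparison B cells, so both genes were near the limit of detection. No macrophage or neutrophil had a UMI of either. Rag2 was found in 8 of 20 cycling and 1 of 87 other Vpreb3-only cells, and Rag1 in 3 and 10. The cycling cells were deeper (median 7709.5 against 3112 UMIs), and after thinning to 2000 UMIs Rag2 was in 5% of the 20 cycling and 1.25% of 80 other cells. In female mice 17 of 80 precursor cells had Rag1 or Rag2, 2 with Igll1 or Vpreb1 and 15 Vpreb3-only.

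Ighm, the mu heavy chain, had a UMI in all 132 precursor cells and all 29 comparison B cells. It was also found in 82.3% of macrophages, 27.1% of T cells and 11.6% of neutrophils, so a single UMI is no sign of expression. By level it stood apart from that background, with 5376 CPM in Vpreb3-only cells, 2404 in cells with Igll1 or Vpreb1 and 3651 in comparison B cells, against 280.0 in macrophages.

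Light chain RNA (Igkc, Iglc1, Iglc2 and Iglc3) was found in nearly all cells. At least 3 UMIs were found in 124 of 132 precursor cells and 28 of 29 comparison B cells, and in 0 of 1326 macrophages (95% Clopper-Pearson interval 0% to 0.278%). The 8 precursor cells with 2 or fewer were 7 cells with Igll1 or Vpreb1 and 1 Vpreb3-only cell. Of the 107 Vpreb3-only cells, 99 had 10 or more light chain UMIs. Kappa made up 80% or more of them in 56 cells and 20% or less in 15, of which 7 had mostly Iglc1, and 28 cells lay between. Among 27 comparison B cells with 10 or more light chain UMIs the same counts were 17, 1 and 9. Of 14 such cells with Igll1 or Vpreb1, 13 had 80% or more kappa and 1 had 20% or less, a cell with 1 Vpreb1 UMI. These are UMIs of constant regions, and rearrangement of the chains was not examined. Iglc2 and Iglc3 are near-identical copies, and how their shared reads were counted is uncertain. The plot of cells with a UMI by class sets these genes side by side.

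**Figure D2:**
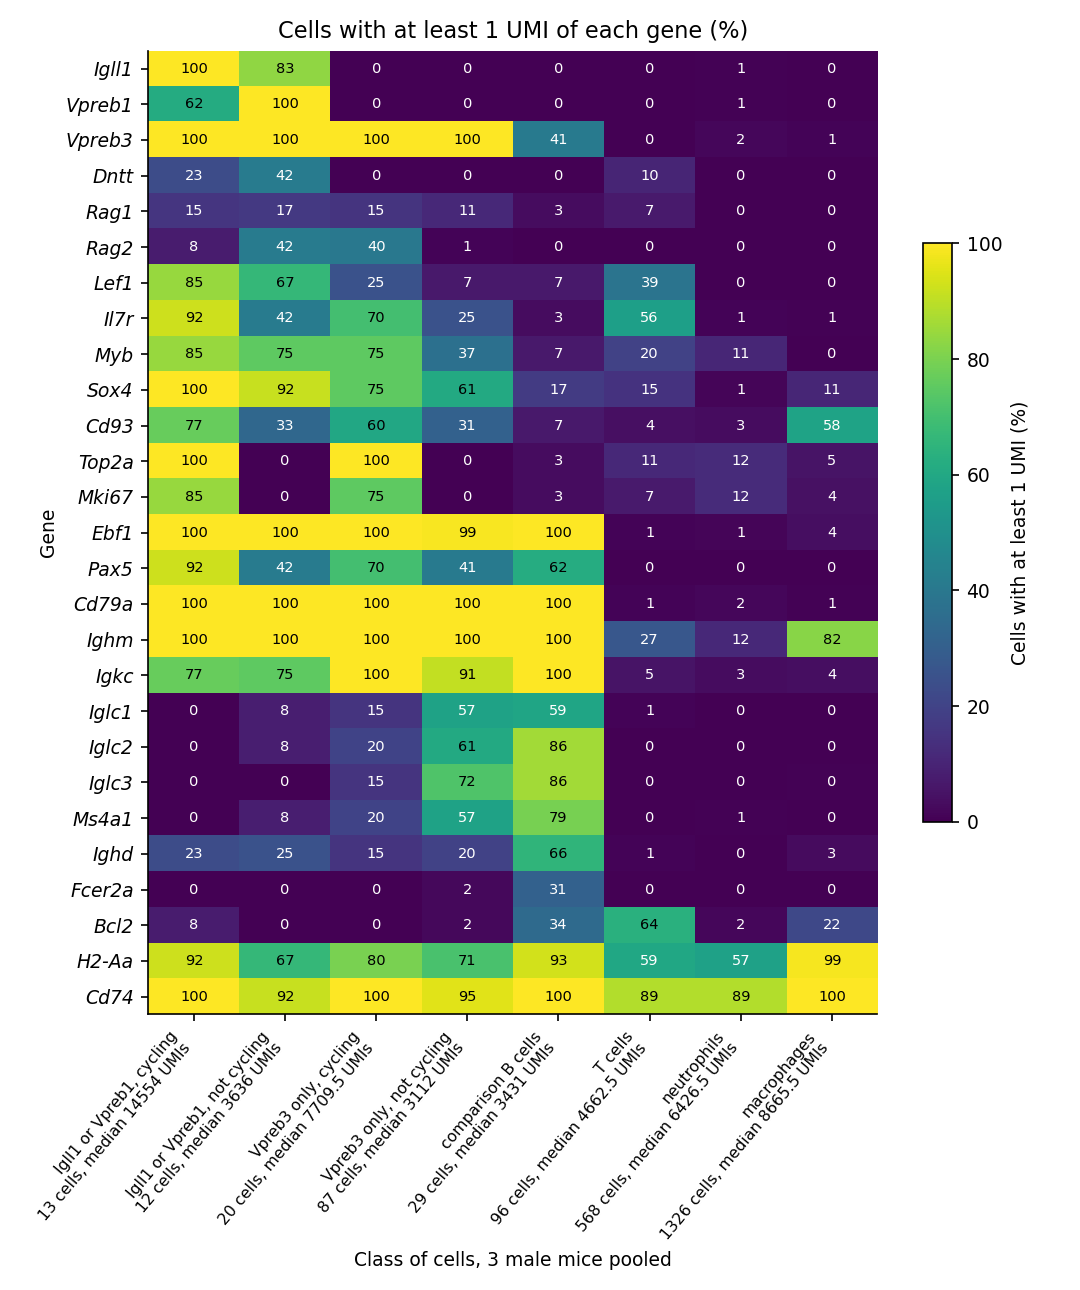
Percent of cells with at least 1 UMI of each gene (rows) in 8 classes of cells of the male mice (columns, with the number of cells and median UMIs), at the depth as deposited. Cycling means a UMI of Top2a or Mki67. Igll1, Vpreb1, Top2a and Mki67 define the 4 precursor classes. Dntt is at 0% in both Vpreb3-only classes, Ms4a1, Iglc2 and Iglc3 are found mostly in non-cycling Vpreb3-only and comparison B cells, and Ighm reaches 82.3% of macrophages.

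Cells with Top2a or Mki67, genes of dividing cells, were 27.3%, 17.1% and 28.1% of the precursor cells in male mouse 1, 2 and 3 (24.2% ± 6.11, 33 of 132 cells). Of the comparison B cells they were 0%, 33.3% and 0% (11.1% ± 19.2, 2 of 29 cells, both in mouse 2, where the group had 6 cells). The difference of 13.1 percentage points did not pass an exact permutation test (two-sided, p = 0.4, n = 3 against 3). In female mice the shares were 16.7%, 27.3% and 14.3% against 0%, 0% and 10% (19.4% ± 6.91 against 3.33% ± 5.77). There every precursor share was above every comparison share, with p = 0.1, the smallest an exact permutation test with n = 3 against 3 can give. At 2 or more UMIs the male shares were 21.1% ± 3.61 against 5.56% ± 9.62, also without overlap (exact permutation p = 0.1). With each cell thinned to 2000 UMIs, the female shares were 13.3%, 22.7% and 11.1% against 0%, 0% and 12.5%, which overlap (exact permutation p = 0.2, n = 3 against 3), and the male difference was 10.5 points (exact permutation p = 0.4). Over all 6 mice, paired within a mouse and not thinned, the difference was 14.6 points with p = 0.09375 in an exact sign-flip permutation test. Without male mouse 2 the male difference was 27.7 points, and without mouse 1 or 3 it was 5.97 or 5.54. Other cells also held such UMIs, since 7.69% of macrophages, 13.7% of neutrophils and 12.5% of T cells had at least 1.

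Dividing cells were found in both stages. Of the 25 cells with Igll1 or Vpreb1, 13 had Top2a or Mki67, and of the 107 Vpreb3-only cells 20 had. Male mouse 1, 2 and 3 had 5, 6 and 9 of the latter and 4, 0 and 9 of the former, so mouse 2 had no dividing cell with the surrogate light chain. With 5 or more UMIs of both genes together there were 26 cells, 12 with Igll1 or Vpreb1 and 14 Vpreb3-only, at a median depth of 9922 UMIs. Light chain levels were low in dividing cells. Igkc had 3403 CPM in cycling and 12616 in other Vpreb3-only cells, and Iglc1 48.3 and 2181. Ms4a1 (CD20) had 117 and 1169 CPM. Il7r, the receptor of the growth factor IL-7, had 276 CPM in cycling and 138 in other Vpreb3-only cells. These are values of pooled cells, given without a test.

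Other genes differed stepwise with the number of precursor-gene UMIs. In male cells with 0 to 1, 2 to 4, 5 to 9 and 10 or more of them (29, 26, 31 and 75 cells), Cd74 had 18696, 11121, 7004 and 1308 CPM. Sox4 ran the other way, with 94.1, 524, 568 and 971 CPM. Ms4a1 was high in the middle, at 941, 1429, 1419 and 209 CPM. In female mice Ms4a1 had 880.4, 1564, 889 and 115 CPM, so that there the bin of 2 to 4 lay above comparison B cells and the bin of 5 to 9 was close to them. Top2a was nearly confined to the last bin in male mice (11.4 CPM at 5 to 9 UMIs and 1154 at 10 or more), while female cells with 5 to 9 had 444 CPM. In female mice the order of the bins was the same for Cd74 (19113, 8245, 5837 and 669 CPM) and for Sox4 (123, 549, 757 and 889). The last bin was the deepest (median 4054 UMIs against 2782 to 3431).

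**Figure D3:**
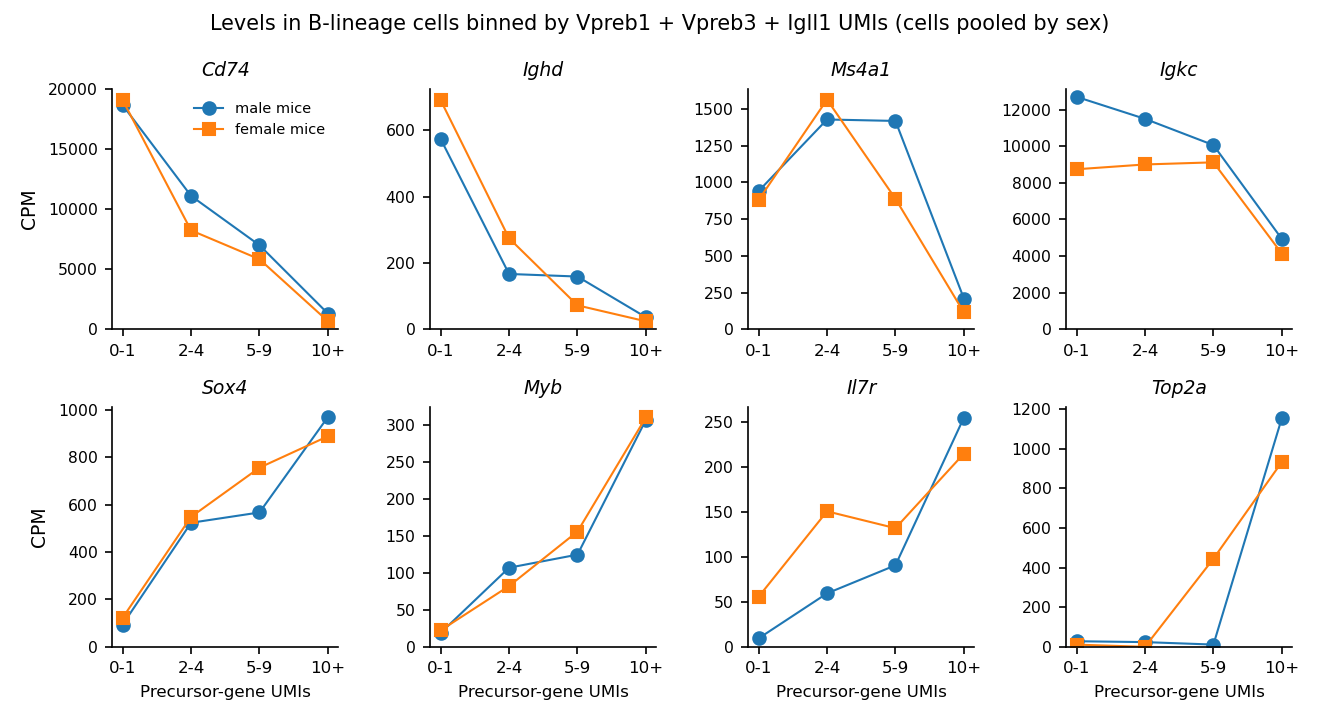
CPM of 8 genes (y, from 0) in B-lineage cells binned by their Vpreb1, Vpreb3 and Igll1 UMIs (x), for pooled cells of 3 male (circles) and 3 female mice (squares). Cd74 and Ighd are highest at 0 to 1 UMI, Ms4a1 at 2 to 4, and Sox4, Myb and Top2a at 10 or more, with no error shown since cells were pooled.

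Which genes differ between precursor and comparison B cells was tested on UMIs summed per mouse and group (139343 to 315949 UMIs for precursor cells, 22559 to 47583 for comparison B cells) with the quasi-likelihood test of edgeR, p being adjusted over all genes tested (Benjamini-Hochberg). SE is the standard error of a log2 fold change. The 7 genes of the rule that could be tested were left out, and since the rule chose the cells, the test shows what went along with those genes. Of 1532 genes, 158 were higher in precursor cells (10.3%) and 149 lower (9.73%) at an adjusted p under 0.05, and 301 of these 307 (20% of the genes tested) went the same way in each mouse. In 414 genes (27%) every precursor value was above every comparison value, and in 206 (13.4%) below. The median log2 fold change over all genes was 0.14. These groups differ in the number of cells, so a group's level is per UMI and not per cell.

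Genes of antigen presentation were far lower in precursor cells. Cd74 had 2212, 3588 and 3887 CPM in precursor cells of mouse 1, 2 and 3 and 21394, 15914 and 16879.7 in comparison B cells. The groups were far apart, with a log2 fold change of -2.63 (SE 0.22, adjusted p = 3.63e-07). H2-Aa, the alpha chain of a class II molecule, had 629.9, 861 and 877 against 6494, 4034 and 4317 CPM, a log2 fold change of -2.81 (SE 0.23, adjusted p = 3.63e-07). All 6 class II genes tested were lower (Cd74, H2-Aa, H2-Ab1, H2-DMa, H2-DMb2 and H2-Eb1, of 10 listed), with a median log2 fold change of -2.72 against 0.14 for all genes. H2-DMb2, a part of the peptide exchanger, and H2-Eb1 had log2 fold changes of -3.54 and -2.98. H2-DMb2, with 44 UMIs in precursor cells, passed the filter on low counts only through the comparison B cells, so its value is a description.

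Genes of mature B cells were lower as well. Ighd, the IgD heavy chain, had 74.7, 57.4 and 69.6 CPM in precursor cells and 567, 443 and 664 in comparison B cells, without overlap and with a log2 fold change of -3.19 (SE 0.29, adjusted p = 1.31e-06). Fcer2a, the low-affinity IgE receptor CD23, had 9.33, 7.18 and 0 against 126, 177 and 138 CPM, and its 15 UMIs in 29 comparison B cells stood against 3 in 132 precursor cells (log2 fold change -4.84, SE 0.91, adjusted p = 0.00118, ratio of pooled UMI shares 0.0317 with a 95% counting interval of 0.00589 to 0.112). Ighd and Fcer2a passed the filter on low counts only through the comparison B cells, which fixed their direction, so their values are a description. Of 24 genes in the mature B list 17 were tested, 11 were lower and 0 higher, with a median log2 fold change of -1.42. The 11 were Bank1, Ccr7, Cd55, Cd83, Fcer2a, Fcmr, Gimap6, Ighd, Ltb, Ms4a1 and Ralgps2. Cd55 and Gimap6, with 33 and 23 UMIs in precursor cells, also passed the filter only through the comparison B cells. The count of 11 is therefore a description. The most abundant members, Btg1 and Cd37, had log2 fold changes of -0.52 and -0.68 and did not pass (adjusted p = 0.0819 and 0.0833, edgeR). Of the survival genes 4 were tested and none was called, Mcl1 at -0.61 (SE 0.27, adjusted p = 0.126) and the BAFF receptor Tnfrsf13c at -0.79 (SE 0.37, adjusted p = 0.149). In Vpreb3-only cells without Top2a or Mki67, set against comparison B cells without them, Btg1 and Tnfrsf13c were called as higher, with log2 fold changes of 0.57 and 0.83. Bcl2, an inhibitor of apoptosis too sparse to be tested, had 0, 7.18 and 9.5 CPM in precursor cells and 84.1, 266 and 138 in comparison B cells, a ratio of pooled UMIs of 0.0423 (95% counting interval 0.0102 to 0.133).

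The 10 largest falls among genes that went the same way in each mouse were those of Fcer2a, March1, Fchsd2, Gpr183, Gimap6, H2-DMb2, Ighd, H2-Eb1, Cd55 and Dusp1. Fcer2a, March1, Fchsd2 and Gpr183 had 3, 7, 9 and 10 UMIs in precursor cells. Gimap6, H2-DMb2, Ighd, Cd55 and Dusp1 had 23, 44, 46, 33 and 53. All of these passed the filter on low counts only through the comparison B cells, which fixed their direction. Their values are therefore a description, and no order was drawn from their fitted folds. March1, a ligase that acts on MHC class II, had 0, 7.18 and 19 against 189, 133 and 166 CPM (log2 fold change -4.05, SE 0.77, adjusted p = 0.00131). Gpr183 (EBI2), a receptor that guides B cells in lymphoid tissue, had 4.67, 64.6 and 0 against 273, 133 and 166 CPM (log2 fold change -3.81, SE 0.87, adjusted p = 0.00545). It was no longer called by edgeR without mouse 1 (log2 fold change -2.83) or without mouse 3 (-3.09). Dusp1, a phosphatase of the early stress response, had a log2 fold change of -2.85, and -1.43 without mouse 1, where it was not called. Of the homing genes 5 were tested and Ccr7 and Gpr183 were lower. Cxcr4, the receptor that holds precursors in the marrow, had 294, 316 and 319.7 against 462, 355 and 415 CPM and did not pass (log2 fold change -0.58, adjusted p = 0.149).

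Immunoglobulin genes did not move as 1 group. Ighm had 3826, 5009 and 4244 CPM in precursor cells and 3573, 3679 and 3736 in comparison B cells, a log2 fold change of 0.12 (SE 0.16, adjusted p = 0.658) that did not pass. Igkc had 4880.4, 8002 and 6783 against 12294, 12722 and 13199 CPM, a log2 fold change of -1.09 (SE 0.17, adjusted p = 0.000342). Iglc2 was lower (log2 fold change -1.26, adjusted p = 0.00114), whereas Iglc1, at 1199, 1299 and 763 against 252, 177 and 2656 CPM, was set by 1 mouse on the comparison side. Its log2 fold change was -0.089 in all mice and 2.27 without mouse 3, where it was called as higher. Without mouse 3 neither Igkc (-1.13) nor Iglc2 (-1.27) was called, nor was either with groups formed on thinned cells (-0.71 and -0.97). Against comparison B cells with 0 precursor-gene UMIs Iglc2 was not called either (-0.48). Without all cells that had Top2a or Mki67, Igkc had a log2 fold change of -0.39 and was still called, and Iglc2 had -0.27 and was not. Among Vpreb3-only cells without Top2a or Mki67, Igkc had a log2 fold change of -0.12 and Iglc2 of 0.042, neither of them called.

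**Figure D4:**
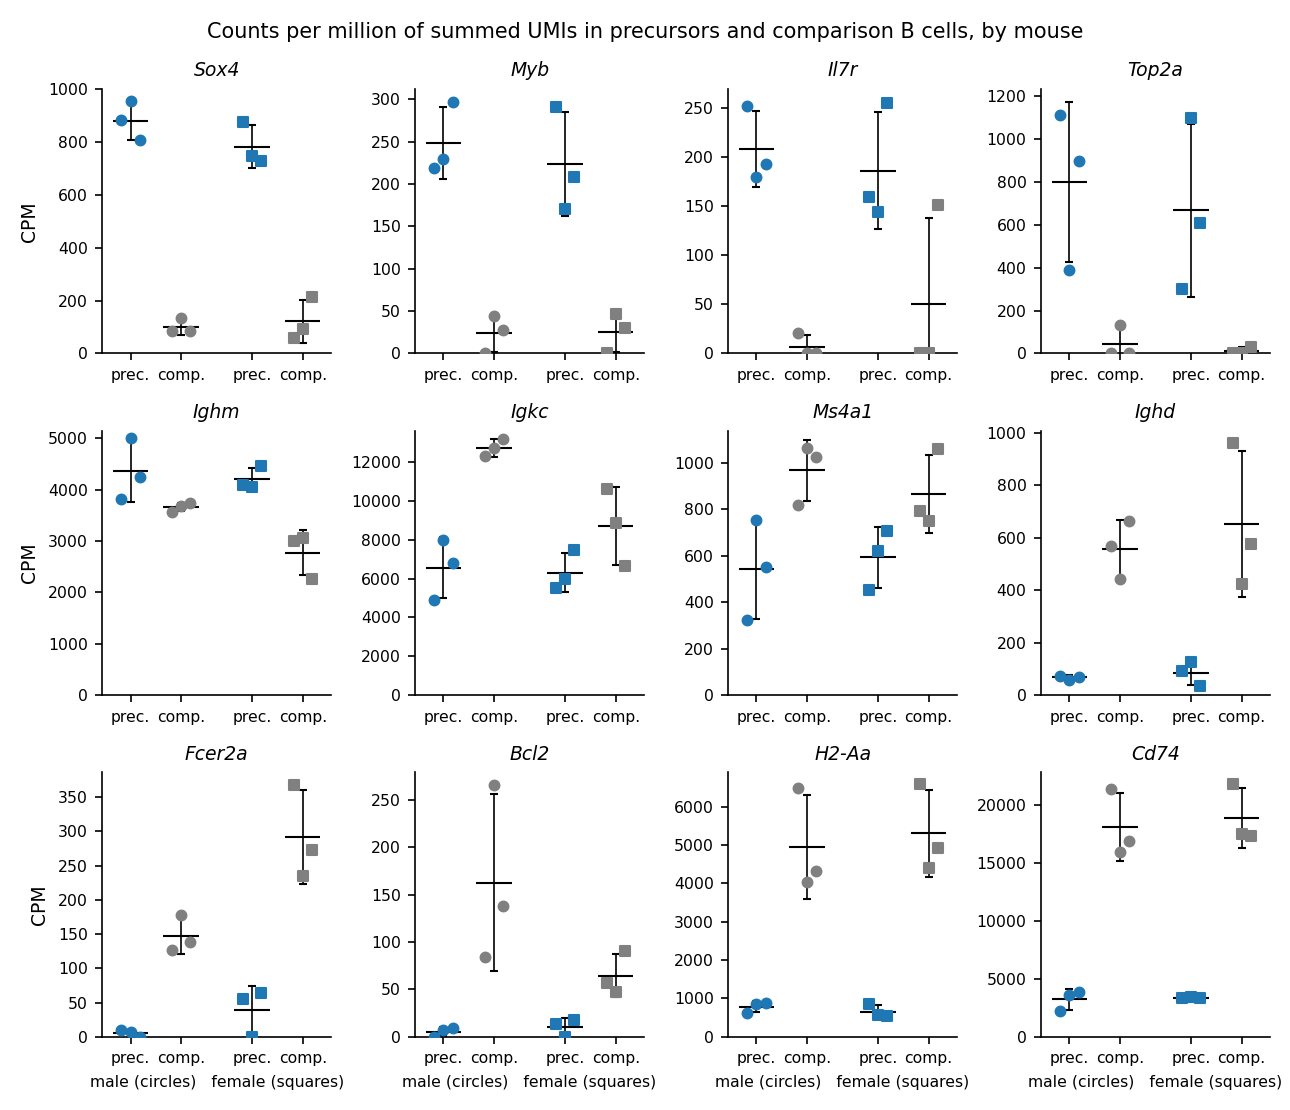
CPM of 12 genes (y, from 0) in precursor cells (prec., blue) and comparison B cells (comp., grey) of 3 male (circles) and 3 female mice (squares). Each point is 1 mouse, with mean (line) and SD (bars, cut at 0). Of the 12 genes, only Il7r and Igkc overlap between the groups, and only in female mice. Of all genes tested in male mice, 27% lay above and 13.4% below without overlap, and in female mice 25.7% and 13.9%.

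Sox4, a gene of early B-lineage cells, was higher in precursor cells. It had 882, 954 and 807 CPM in precursor cells of mouse 1, 2 and 3 and 84.1, 133 and 83 in comparison B cells, a log2 fold change of 3.06 (SE 0.34, adjusted p = 1.16e-05). Myb, a factor needed early in the lineage, had 219, 229.6 and 298 against 0, 44.3 and 27.7 CPM (log2 fold change 3.54, SE 0.65, adjusted p = 0.00108, ratio of pooled UMI shares 13.7 with a 95% counting interval of 3.74 to 114). Il7r had 252, 179 and 193 against 21, 0 and 0 CPM (log2 fold change 4.21, SE 0.78, adjusted p = 0.00113, ratio of pooled UMI shares 22.2 with a 95% counting interval of 3.92 to 884), with 140 UMIs against 1. Each was higher in every mouse without overlap. Il7r and Myb, with 1 and 2 UMIs in comparison B cells, passed the filter on low counts only through the precursor cells, which fixed their direction. Their values are therefore a description. Sox4, with 10 UMIs in comparison B cells, also passed it only through the precursor cells, so its value is a description too. Of 14 genes of the pro-B and early progenitor list these, Sox4 and Ly6d passed the filter, with Ly6d at a log2 fold change of 0.025 (adjusted p = 0.98). Kit, a receptor of the earliest progenitors, had 1 UMI in all precursor cells. Il2ra (CD25), a marker of pre-B cells, was too sparse to be tested, with 17 UMIs in precursor cells and 0 in comparison B cells.

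Among 15 B-lineage transcription factors tested, Bach2, Myb, Sox4 and Tcf3 were higher, Mef2c was lower (log2 fold change -1.36) and 10 did not pass. Of these, Myb and Sox4 passed the filter on low counts only through the precursor cells. Ebf1 had 2650.2, 2397 and 2754 against 1870.4, 1418 and 2241 CPM and did not pass (log2 fold change 0.34, SE 0.19, adjusted p = 0.237), and neither did Pax5, which holds cells in the B lineage (log2 fold change -0.59, SE 0.31, adjusted p = 0.199). Of 8 genes of small pre-B and immature B cells tested, Bcl7a, Cd24a, Cecr2 and Tifa were higher and none lower. Cd24a, which encodes the heat-stable antigen, had 1619, 1155 and 1149 against 273, 665 and 359.7 CPM (log2 fold change 1.58, SE 0.29, adjusted p = 0.00108), and was not called without mouse 3 (log2 fold change 1.53). Of 11 genes for signalling of the pre-B cell receptor tested, Blnk, the adaptor beneath it, and Ccnd3, a cyclin, were higher, and the phosphatases Ptpn6 and Ptprc were lower. For reference, 10.3% of all 1532 genes tested were higher and 9.73% lower, and no test set the counts of these lists against that share. Ptpn6 (log2 fold change -1.29, adjusted p = 0.0181) was not called in 7 of 14 alternatives, among them without mouse 2 (-0.81), without mouse 3 (-1.30) and without cells that had Top2a or Mki67 (-0.30). Blnk (adjusted p = 0.0491) lay at the threshold and was not called without any 1 of the mice (log2 fold changes of 0.70, 0.77 and 1.20). Cd93, a marker of immature B cells too sparse to be tested, had 140.0, 108 and 98.1 against 21, 44.3 and 0 CPM, but 57.9% of macrophages had a UMI of it as well.

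The 10 genes named as highest by fitted fold change were Ube2c, Nusap1, Birc5, Hist1h2ae, Smc2, Ccnb2, Cks1b, Arntl, Rfc4 and Nmral1. Each had 0 UMIs in the 29 comparison B cells and passed the filter on low counts only through the precursor cells, so their order follows their UMIs in precursor cells (397 for Ube2c to 86 for Nmral1) and does not show which gene rose most. Set against 3 UMIs over that group, taken as the upper limit of a count of 0 with no counting error in the other group, Ube2c, a ubiquitin-conjugating enzyme of mitosis, was at least 21-fold higher, with 1008, 215 and 478 CPM in precursor cells (397 UMIs). Birc5 (survivin) was at least 13-fold and the cyclin Ccnb2 at least 8.99-fold higher. Such bounds, here and below, count each UMI as independent and carry no spread between cells or mice. They therefore describe the pooled UMIs only. Arntl, a transcription factor of the circadian clock, was at least 5.34-fold higher, and its level was even between mice (154, 122 and 161 CPM). Without mouse 3, Arntl, Hist1h2ae, Nmral1, Nusap1, Rfc4 and Smc2 of these were not called by edgeR. With groups formed on cells thinned to 2000 UMIs, Birc5, Ccnb2, Cks1b and Ube2c were not called (adjusted p = 0.239, 0.436, 0.435 and 0.143).

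Top2a had 1115, 388 and 899 CPM in precursor cells and 0, 133 and 0 in comparison B cells (log2 fold change 4.64, SE 0.75, adjusted p = 0.000359, ratio of pooled UMI shares 30.5 with a 95% counting interval of 10.4 to 148). Mki67 had 462, 179 and 272 against 0, 44.3 and 0 CPM (log2 fold change 4.77, SE 0.93, adjusted p = 0.00157, ratio of pooled UMI shares 33.3 with a 95% counting interval of 5.92 to 1323), and was not called without mouse 3 (log2 fold change 4.22). Of 54 genes of G2 and M phase 18 passed the filter on low counts and 16 of these were called as higher. Of the 18, 5 had 0 UMIs in comparison B cells and 8 had at most 3, so they passed the filter through the precursor cells, and the direction of such genes was fixed by it. Of 43 S phase genes 11 passed, 4 of them with at most 3 UMIs in comparison B cells, and Atad2, Gmnn, Mcm7, Nasp and Rrm2 were called as higher. The counts of both lists are therefore a description only. Hmgb2, a chromatin protein, had 4297, 2999.8 and 4096 against 294, 754 and 470.4 CPM (log2 fold change 2.89, SE 0.26, adjusted p = 1.17e-06). Of 11 recombination genes, Rag1, Rag2 and Dntt were too sparse to be tested, and 2 passed the filter. Hmgb1 was higher, at a log2 fold change of 1.89 (SE 0.23, adjusted p = 3.18e-05). Xrcc6 (Ku70, which binds broken DNA ends) had 148 UMIs against 1 and passed the filter only through the precursor cells, as did Mki67 and Top2a (1 and 3 UMIs in comparison B cells), so their direction was fixed by it. With groups formed on thinned cells Xrcc6, Hmgb1, Hmgb2, Mki67, Myb and Rrm2 were not called. Hmgb1 and Hmgb2 were not called without cells that had Top2a or Mki67 either (adjusted p up to 0.35 for Hmgb1 and 0.549 for Hmgb2 over all alternatives).

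Much of the comparison changed once dividing cells were left out. Without cells that had a Top2a or Mki67 UMI, 67 genes were higher and 108 lower of 997 tested, and 44 of the 67 and 90 of the 108 were among those called in all cells. Cd74 and H2-Aa kept their calls, with log2 fold changes of -1.93 and -2.41, while Il7r was too sparse to be tested. Ighd (-2.63) and Sox4 (3.20) were called too. Each passed the filter on low counts through only 1 of the groups, so their values are a description. Myb was called as well (3.92), but it passed the filter on low counts only through the precursor cells, so its value is a description. Ms4a1, which was lower in all cells (log2 fold change -0.97, SE 0.29, adjusted p = 0.025), then had a log2 fold change of 0.00408 and was not called. Without mouse 1 or 3, Ms4a1 was not called either (-0.75 and -0.97). The counts over all cells were 78 higher and 91 lower without mouse 1, and 44 higher and 39 lower without mouse 3.

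The stage within the precursor cells was tested between cells with and without Igll1 or Vpreb1 in male mouse 1 and 3, since mouse 2 had only 2 such cells. Of 2162 genes 147 were higher in cells with the surrogate light chain (6.8%) and 172 lower (7.96%) by the same edgeR test, and all 319 (14.8%) went the same way in both mice. With 2 mice these calls rest on a small sample, and leaving out a mouse would leave 1 against 1.

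Cells with Igll1 or Vpreb1 had little light chain. Igkc had 1771 and 999 CPM in them in mouse 1 and 3 and 8305 and 10886 in Vpreb3-only cells (log2 fold change -2.84, SE 0.25, adjusted p = 2.17e-06). Iglc3 had 0 UMIs against 245, at least 69.3-fold lower when set against 3 UMIs. All 5 immunoglobulin constant genes tested were lower, Ighm among them, which had 2902 and 1967 against 4844 and 5859.9 CPM (log2 fold change -1.18, SE 0.20, adjusted p = 0.00135). Of the mature B list 11 of 13 tested genes were lower, and Ms4a1 had 89 and 0 against 579 and 947 CPM (log2 fold change -4.24, SE 0.58, adjusted p = 0.000332). By DESeq2's Wald test Iglc1 and Ms4a1 were not called (adjusted p = 0.815 and 0.381), and all 71 Iglc1 and all 10 Ms4a1 UMIs of the cells with Igll1 or Vpreb1 lay in 1 cell of mouse 1, which had 1 Vpreb1 UMI. All 6 class II genes were lower again, with Cd74 at 338 and 442 against 4275 and 6331 CPM (log2 fold change -3.81, SE 0.24, adjusted p = 1.47e-07). Markers of other cell types moved as well. Apoe (-1.68) and Lyz2 (-1.04), the macrophage genes tested, were lower in cells with Igll1 or Vpreb1, as were Ngp of the neutrophil list (-2.26) and Blvrb of the erythroid list (-1.54), whereas Plac8 of the monocyte list (1.86) and Car2 of the erythroid list (1.66) were higher, and their part in the falls above was not tested. The 10 largest falls were those of Iglc3, Fcmr, Gm31243, Iglc2, Bank1, Hvcn1, Ms4a1, Slfn2, Cd40 and Cd74. Of these, Iglc3, Fcmr and Gm31243 had 0 UMIs in cells with Igll1 or Vpreb1, Bank1, Hvcn1 and Slfn2 1, Cd40 2 and Iglc2 4. They passed the filter on low counts only through the Vpreb3-only cells, which fixed their direction, so no order was drawn from their fitted folds. Ms4a1, with 10 UMIs in cells with Igll1 or Vpreb1, also passed it only through the Vpreb3-only cells.

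Dntt had 89 and 534 CPM against 0 in both mice (80 UMIs, at least 31.4-fold higher when set against 3 UMIs over the group at 0). It passed the filter on low counts only through the cells where it is high, so its fitted fold change and its place among the top 10 were not used. Lef1, a transcription factor of pro-B and pre-B cells, had 89 and 389 against 19.6 and 27.1 CPM (log2 fold change 3.24, SE 0.66, adjusted p = 0.00462). The others of the top 10 were Ramp1, Cdk6, Lig1, Gsn, Pcna, Nrgn, Rsph1 and Plk1. Of the top 10, Ramp1, Lef1, Cdk6, Lig1, Gsn, Pcna, Rsph1 and Plk1 had 2 to 15 UMIs in Vpreb3-only cells. They passed the filter on low counts through the cells where they are high, which fixed their direction, so their values are a description. Cdk6, a kinase of the G1 phase, had 178 and 206 against 29.4 and 21.6 CPM (log2 fold change 2.88, SE 0.46, adjusted p = 0.000944), and Pcna, the replication clamp, had 231 and 282 against 19.6 and 64.9 (log2 fold change 2.35, SE 0.42, adjusted p = 0.00172). Of 21 S phase genes tested 8 were higher and of 38 G2 and M phase genes 6, with none lower in either list, against 6.8% of all 2162 genes tested that were higher. Sox4, Myb and Il7r did not pass here (log2 fold changes of -0.53, 0.83 and 0.38, adjusted p = 0.128, 0.113 and 0.46, edgeR). Against comparison B cells the values of Sox4, Myb and Il7r were a description only. Pax5 was at 178 and 221 against 167 and 227 CPM (log2 fold change -0.065, SE 0.31, adjusted p = 0.907). With the mouse as a block, 78 genes were higher and 119 lower. The groups also differed in dividing cells and in depth. Top2a or Mki67 was found in 13 of the 25 cells with Igll1 or Vpreb1 and 20 of the 107 Vpreb3-only cells of all male mice. Without such cells, 6 and 4 cells with Igll1 or Vpreb1 were left in mouse 1 and 3 (23097 and 14670 UMIs), against 18 and 42 Vpreb3-only cells, and 22 genes were higher and 29 lower of 682 tested. No S phase gene passed the filter on low counts there, and Lef1, Cdk6 and Pcna did not either. Igkc (-2.30), Ighm (-1.48), Ms4a1 (-2.11) and Cd74 (-2.85) were still called as lower, whereas Iglc1 was not called. Ms4a1 passed the filter only through the Vpreb3-only cells there, so its value is a description. Dntt was called as higher, but it again passed the filter only through the cells where it is high, so its call was not used. Myb was called as higher (2.18), but it too passed the filter only through the cells with Igll1 or Vpreb1, so its value is a description. This alternative was chosen after seeing the data. With each cell thinned to 2000 UMIs, Dntt was in 29.2% of 24 cells with Igll1 or Vpreb1 and 0% of 100 Vpreb3-only cells, and Ms4a1 in 4.17% and 49%.

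The same comparison in female mice, whose cells the rule had not used, gave 106 genes higher in precursor cells (9.3% of 1140 tested) and 120 lower (10.5%) by the same edgeR test, or 19.8% in either direction. Cd74 had 3344, 3411 and 3326 CPM in precursor cells of female mouse 1, 2 and 3 and 21806, 17452 and 17303 in comparison B cells (log2 fold change -2.63, SE 0.15, adjusted p = 2.15e-08). Sox4 had 874, 747 and 727 against 56.6, 93.8 and 212 CPM (log2 fold change 2.53, SE 0.38, adjusted p = 0.000353), and Ighd 90.2, 126 and 36.3 against 962, 422 and 575 (log2 fold change -3.11, SE 0.41, adjusted p = 0.0001). Sox4 passed the filter on low counts only through the precursor cells and Ighd only through the comparison B cells, so their values are a description. All 6 class II genes tested were lower, and 9 of 16 mature B genes were lower and 0 higher. Of 9 G2 and M phase genes that passed the filter Anp32e, Hmgb2, Mki67 and Top2a were called as higher, of which Mki67 and Top2a, with 0 and 1 UMI in comparison B cells, passed it only through the precursor cells, so this count is a description only.

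The 10 genes named as highest in female mice were Pclaf, Hist1h2ae, Rrm2, Mki67, Xrcc6, Top2a, Ezh2, Tifa, Hist1h2ap and Smc3, each with at most 1 UMI in comparison B cells, so that no order was drawn from their fitted folds. Pclaf, a partner of the replication clamp, had 888, 1539 and 845 CPM against 0 in each mouse, at least 32.1-fold higher when set against 3 UMIs. The largest falls were those of Plaur, Gpr183, P2ry10, H2-DMb2, Rab30, H2-Aa, Ighd, Shisa5, Fcer2a and H2-Eb1. Plaur, Gpr183, P2ry10 and Rab30 had 4, 7, 9 and 8 UMIs in precursor cells. H2-DMb2, Ighd, Shisa5 and Fcer2a had 25, 31, 39 and 15. All of these passed the filter on low counts only through the comparison B cells, which fixed their direction, so their values are a description. P2ry10, a receptor of lymphocytes, had 13.9, 27 and 36.3 against 311, 281 and 303 CPM (log2 fold change -3.65, SE 0.51, adjusted p = 0.000195). Iglc1, called in female mice and not in male mice, had 812, 1062 and 1054 against 368, 141 and 303 CPM (log2 fold change 1.62, SE 0.31, adjusted p = 0.00183). Single cells weighed on it, since 81 of the 117 Iglc1 UMIs of precursor cells of mouse 1 lay in 1 cell and 50 UMIs in 1 cell of mouse 2, each with 2 precursor-gene UMIs, just inside the rule. Ebf1 had 3247, 2592 and 3771 against 2008, 1595 and 1845 CPM (log2 fold change 0.67, SE 0.19, adjusted p = 0.0251) and Cxcr4 278, 360.0 and 363 against 622, 657 and 545 (adjusted p = 0.0179), both called in female mice and not in male mice, with the sign they had in male mice. Il7r did not pass in female mice, at 159.6, 144 and 254 against 0, 0 and 151 CPM (log2 fold change 1.57, SE 0.74, adjusted p = 0.154), where a single comparison B cell of mouse 3 held all 5 UMIs of its group. That cell, of 7564 UMIs, had 0 UMIs of Cd79a, Ebf1 and Igkc and 2 of Dntt. In the same mouse the list of dendritic cell genes summed to 1785 CPM in comparison B cells, against 56.6 and 46.9 in the others, and its part in this result was not tested. Without mouse 3, 25 genes were higher and 19 lower, and Fcer2a, Gpr183, Hist1h2ae, Hist1h2ap, Mki67, Rab30, Smc3 and Top2a were not called.

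Of the 158 genes higher in male mice 124 were tested in female mice, and 123 had the same sign there, against 55.5% of the 1103 genes tested in both sexes with that sign. Of the 149 lower genes 129 were tested and 127 had the same sign, against 44.5% of all. The calls shared by both sexes were 69 of the higher (43.7% of the male and 65.1% of the female list) and 88 of the lower genes (59.1% and 73.3%). An interaction of group and sex, tested by edgeR over 1171 genes, called 0 genes at an adjusted p under 0.05 (47 at an unadjusted p under 0.05, smallest adjusted p = 0.762). The plot of fold changes in both sexes shows class II and mature B genes in the lower left and cell cycle genes in the upper right.

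**Figure D5:**
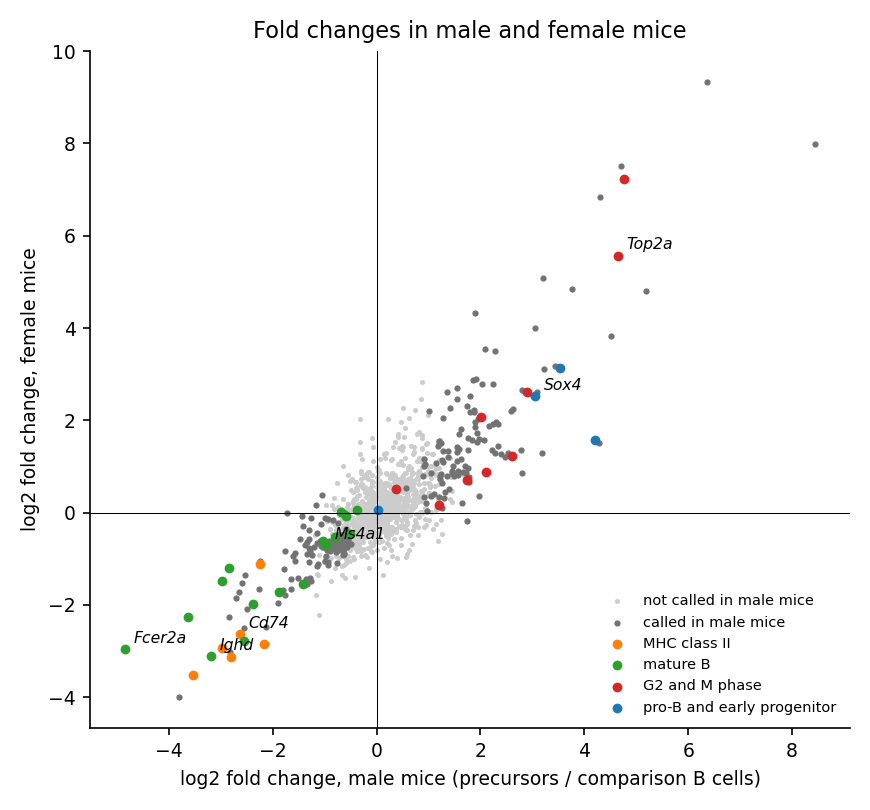
Log2 fold change of precursor cells over comparison B cells in male (x) and female mice (y) for the 1103 genes tested in both, with dark points for genes called in male mice and coloured points for 4 gene lists. Top2a and Sox4 lie at the upper right, and Cd74, Ighd and Fcer2a at the lower left.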

How the data were processed

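The authors deposited raw UMI counts per gene and cell (10x 3′ chemistry, Cell Ranger 3.1.0 per the file headers, mm10 per the labels), as a matrix of cells with a male hashtag and a hashtag library whose gene rows hold the same counts for all 4395 barcodes (0 entries differed). Hashtag counts, deposited as antibody tags per barcode, were read with HTODemux (Seurat 5.3.0, quantile 0.99) over all barcodes, followed by filters of 200 to 5000 genes and under 5% mitochondrial UMIs, which gave the 2668 deposited barcodes exactly and 1073 with a female hashtag. The 269 barcodes with 2 or more hashtags were left out as doublets, and doublets within 1 mouse remained. Scrublet (scanpy 1.11.5) marked 0.241% of the remaining cells and no B-lineage precursor, too few to be relied on. The members, gene lists and tests were chosen with earlier results of these data known.

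UMIs were summed per mouse and group (5 or more cells) and tested with edgeR 4.0.16 (R 4.3.3, TMM, filterByExpr, quasi-likelihood test, Benjamini-Hochberg adjustment over all genes tested, threshold 0.05). DESeq2 1.42.0 was an alternative. Tested on simulated data made for the male comparison (1539 genes), the edgeR test recovered 96% of the changes of log2 size 2 and 44% of those of size 1, with 7 false calls. Shares were compared by exact permutation tests over mice (SciPy 1.17.1). Named genes were the 10 largest changes in each direction that were called and went the same way in each mouse, a set of stage genes, and the most abundant genes of each list. Precursor and comparison cells of a mouse are paired by animal. Their deviations from the group means had correlations of -0.057, -0.033 and -0.033 in male mice, and the fit without the mouse as a block is reported. Background classes were macrophages (1% or more of UMIs from the C1q genes), neutrophils (S100a8 and S100a9) and T cells (3 or more UMIs of Cd3d, Cd3e, Cd3g and Trbc2). Totals were 139343 to 315949 UMIs per mouse in precursor cells and 22559 to 47583 in comparison B cells, so genes with few UMIs in the latter carry wide error. Listed genes not in the matrix (7) were not analysed here, and some other genes are not reported here. All 80 genes looked up in GENCODE M21 matched by identifier, and sequences came from RefSeq.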

Additional observations from a re-analysis of the deposited data

Results flagged for a closer look

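Barcodes outside the compared cells also met the rule for precursor cells. Among 247 barcodes with 5% or more mitochondrial UMIs and under 5000 genes, 5 did (2.02%, 95% Clopper-Pearson interval 0.660% to 4.66%), of which 2 had Top2a or Mki67 and 2 had Igll1 or Vpreb1. Among 269 barcodes with more than 1 hashtag, 9 did (3.35%, interval 1.54% to 6.26%), of which 2 had Top2a or Mki67 and 1 had Igll1 or Vpreb1. Both counts lie above the limit that a count of 0 allows and are data that no comparison used. For reference, 212 of the 3741 barcodes with 1 hashtag met the rule (5.67%). None of 37 barcodes with 5000 genes or more did (interval 0% to 9.49%), and none of 101 barcodes without a hashtag (interval 0% to 3.59%).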

How the results depend on the processing

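Male counts of genes higher and lower in precursor cells, 158 and 149, moved with the cells and the filter. They were 343 and 79 with no filter on low counts, 30 and 41 with groups formed on cells thinned to 2000 UMIs, and 74 and 78 for Vpreb3-only cells without Top2a or Mki67, an alternative chosen after seeing the data. Without cells that had Top2a or Mki67, 67 were higher, and DESeq2's Wald test called 103 higher. Without each mouse in turn they ranged from 44 to 165 higher and 39 to 154 lower, lowest without mouse 3. Female counts, 106 and 120, were 226 and 66 with no filter, 69 higher by the Wald test, and 25 to 82 higher and 19 to 103 lower without each mouse. Stage counts, 147 and 172, were 33 and 50 by the Wald test, and 22 and 29 of fewer genes tested without dividing cells, an alternative chosen after seeing the data, where Ebf1 (0.55), Cxcr4 (0.078) and Sox4 (0.45) turned sign, none of them called. With the mouse as a replicate block, the stage comparison gave 78 higher and 119 lower and the male comparison 118 and 126, and of the named calls the block lost Blnk and Plac8 in male mice and Rsph1 and Top2a in the stage comparison. Leaving a mouse out of the stage comparison was not run, since 1 against 1 has no residual degrees of freedom. The precursor share of B-lineage cells was 88.7% at 1 precursor-gene UMI or more and 79.3% to 85.3% without each mouse. The share of precursor cells with Igll1 or Vpreb1 ran from 13% to 25.3%, and the difference in the share of dividing cells from 5.54 to 27.7 points, without each mouse.

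Log2 fold changes that turned sign were of genes not called in all male cells, except Iglc2 and Ms4a1. Without dividing cells they were 0.87 for Iglc1, 0.32 for Iglc3, 0.00408 for Ms4a1, 0.26 for Dusp2, 0.37 for Btg1, 0.56 for Tnfrsf13c, -0.42 for Slbp and 0.32 for Lyz2. For Vpreb3-only cells without dividing cells they were 1.02 for Iglc1, 0.042 for Iglc2, 0.64 for Iglc3, 0.27 for Ms4a1, 0.44 for Dusp2, 0.57 for Btg1, 0.18 for Cd37, 0.83 for Tnfrsf13c and 0.34 for Lyz2. Against comparison B cells with 0 precursor-gene UMIs they were 2.81 for Iglc1, 0.28 for Dusp2, 0.041 for Btg1 and -0.045 for Blvrb. With thinned groups they were 0.44 for Iglc1, -0.077 for Ly6d, -0.12 for Blvrb and 0.10 for Lyz2, and with no filter 0.30 for Iglc1 and 0.17 for Lyz2. Iglc1 was 0.40 with the mouse as a block and 0.56 with both sexes, and from -0.69 to 2.27 without each mouse, and Ighm was -0.047 without mouse 2. Ly6d was -0.028 with DESeq2's size factors, -0.19 by the Wald test and from -0.32 to 0.93 without each mouse. Blvrb was -0.00603 by the Wald test and -0.37 without mouse 3. Of these, Iglc1 was called as higher without mouse 3 and against cells with 0 precursor-gene UMIs, and Btg1 and Tnfrsf13c were called as higher for Vpreb3-only cells without dividing cells. The cause was not tested in any of these. Of the other values of named genes in male mice, 619 kept direction and side of the threshold, 64 no longer passed it and 21 newly passed it. Each comparison rests on 25 to 29 comparison B cells per sex, and whether their number limits what could be called was not tested.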

Other observations

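The classes of precursor cells by surrogate light chain and division also differed in other stage genes, given here for male cells thinned to 2000 UMIs and without a test. Lef1 was found in 30.8% of 13 cycling and 36.4% of 11 other cells with Igll1 or Vpreb1, in 0% of 20 cycling and 7.5% of 80 other Vpreb3-only cells, and in 7.41% of 27 comparison B cells. Ms4a1 was found in 15% of the cycling and 57.5% of the other Vpreb3-only cells, and in 81.5% of comparison B cells. Bcl2 in female mice had 13.9, 0 and 18.2 CPM in precursor cells and 56.6, 46.9 and 90.8 in comparison B cells, a ratio of pooled UMI shares of 0.164 (95% counting interval 0.034 to 0.691), with too few UMIs to be tested.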
